A study of Rattus norvegicus with 10 samples.

Results

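Matrix metalloproteinases and the plasminogen activation system were followed through 9 genes, measured by 13 of the 31042 probe sets tested, and 9 of the 14217 genes with a name. The members were Mmp7, Mmp9, Mmp10, Mmp12, Mmp13, Mmp14, Timp1, Plau and Plaur, and every probe set whose only annotated symbol was one of these names was taken. Of the 9 genes, 4 had 2 probe sets: Mmp9, Mmp14, Plau and Plaur; below, they are told apart as the brighter and the dimmer by their mean over the arrays. The tissue was transitional epithelium of the nasal cavity, cut from sections by laser capture microdissection, from male F344/N rats aged 5 to 6 weeks at the start. One group of 5 rats received N,N-dimethyl-p-toluidine (DMPT), an aromatic amine, at 120 mg/kg in corn oil by oral gavage daily for 5 days. The other 5 rats received the vehicle. Each array came from a separately numbered animal. Rats were caged in pairs, the labels do not say which, and arrays were treated as independent.

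Matrix metalloproteinases are zinc-dependent enzymes that are made as inactive precursors and cut collagens, laminins, elastin and surface proteins once activated. Tissue inhibitors of metalloproteinases, such as the product of Timp1, bind and block them. Urokinase (Plau), held at the cell surface by its receptor (Plaur), turns plasminogen into plasmin, which degrades fibrin and activates metalloproteinase precursors. In airway epithelium these proteins are known from cell migration during repair, and in other cells of the nose from macrophages, stroma and bone.

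Several metalloproteinase genes lie next to each other in the rat genome. In the RefSeq table for assembly GRCr8, 10 Mmp genes lie on chromosome 8 in the order Mmp13, Mmp12, Mmp1b, Mmp3, Mmp1, Mmp10, Mmp8, Mmp27, Mmp20 and Mmp7, and 6 of them were measured here. Promoter sequences from the same source were found for 7 of the 9 members, all but Mmp9 and Mmp14. They run from 250 bases before to 50 bases after the annotated start. A match to the binding motif of the transcription factor AP-1 (TGANTCA, which reads alike on both strands) was found in 5 of these 7 promoters, and in 7.33% of all 33469 RefSeq promoters of that length. The stretch from base -100 to base -26 before the start is shown for these 5 genes, because it holds the AP-1 match in each. Capitals mark the AP-1 match and, in the Mmp genes, the TATA box (TATAAA) that follows it.
Mmp7: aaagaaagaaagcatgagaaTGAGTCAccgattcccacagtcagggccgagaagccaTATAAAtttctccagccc
Mmp10: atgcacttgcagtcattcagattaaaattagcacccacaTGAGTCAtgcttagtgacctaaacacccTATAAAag
Mmp12: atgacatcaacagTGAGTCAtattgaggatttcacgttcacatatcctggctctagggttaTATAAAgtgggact
Mmp13: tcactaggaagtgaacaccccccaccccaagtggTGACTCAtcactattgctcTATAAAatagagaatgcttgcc
Plaur: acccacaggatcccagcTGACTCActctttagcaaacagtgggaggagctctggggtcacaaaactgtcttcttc
These stretches lie on the plus strand of GRCr8 at chr8:13132943-13133017, chr8:12974607-12974681, chr8:12866552-12866626, chr8:12782729-12782803 and chr1:89181263-89181337, in the order shown.

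The AP-1 match began at base -80 in Mmp7, -61 in Mmp10, -87 in Mmp12, -66 in Mmp13 and -83 in Plaur. A TATA box was found on either strand in all 4 Mmp promoters and in 14.2% of all promoters, and in none of those of Timp1, Plau and Plaur. The motif of the ETS family factor PEA3 (AGGAAG, either strand) was found in Mmp7, Mmp13, Timp1 and Plaur, and in 34.5% of all promoters. The antioxidant response element (TGACNNNGC, either strand) was found in Timp1 alone, and in 12.1% of all promoters. Plau had no match to any of the 4 motifs in this window. Mmp10 had a pair of overlapping TATA matches further upstream, between bases -198 and -191. These matches are descriptions of the letters in the window, and binding was not measured.

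**Figure D1:**
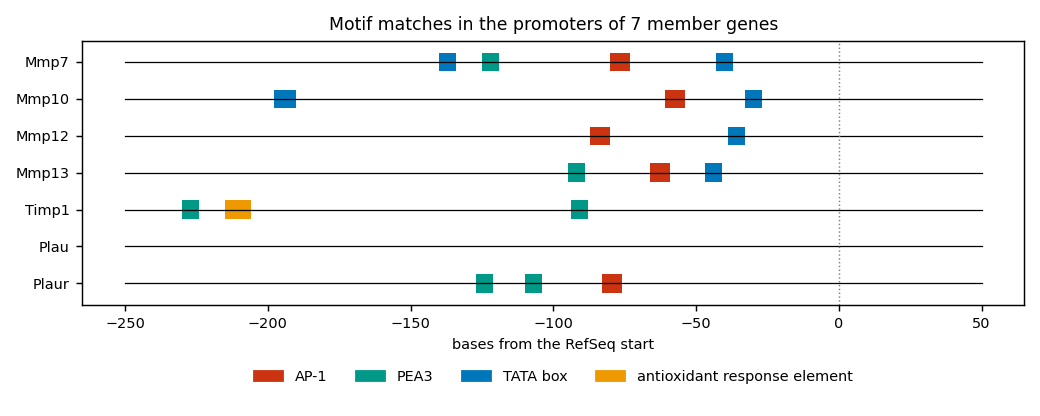
Motif matches in the RefSeq promoters of 7 member genes, drawn to scale along the bases from the annotated start (x axis, from 250 before to 50 after). Red boxes mark AP-1, green PEA3, blue TATA box and orange the antioxidant response element; the AP-1 matches of 5 genes begin between bases -87 and -61, and Plau has no box.

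General epithelial genes were bright in the captured tissue, as were genes of ciliated cells and some genes of stroma and bone. The epithelial genes were not chosen to tell transitional epithelium from other types, so they do not identify it. With vehicle the collagen gene Col1a1 averaged 13.30, and the bone genes Bglap and Ibsp 10.20 and 9.63. The cartilage genes Col2a1 and Acan were dim, at 5.97 and 6.68. The 8 epithelial genes of the marker list had mean log2 levels between 12.96 and 13.12 with vehicle and between 13.18 and 13.27 after DMPT, against array medians of 8.21 to 8.35. Those means did not overlap, and of the 8 genes the keratin genes Krt5 and Krt8 were called higher and 0 lower. Over all genes 7.13% were called higher and 6.77% lower. Markers of ciliated cells went the other way: of 3 measured genes 2 were called lower, Foxj1 and Tekt1, with a median difference of -0.88 and means of 11.50 to 12.49 with vehicle and 10.38 to 11.95 after DMPT. Of the 6 fibroblast genes 0 were called, with means of 10.09 to 11.01 and 9.92 to 11.05. The part of these shifts in the members' differences was not tested. Vehicle replicate 2 had the highest array median and the highest 3' minus 5' log2 ratio of the control transcripts, a measure of RNA integrity, at 1.497. That ratio lay between 1.17 and 1.497 with vehicle and between 0.87 and 1.30 after DMPT. In captured tissue, more cells of a type and more RNA per cell cannot be told apart.

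Mmp12 and Plaur were the members that changed most, and both rose with DMPT. Mmp12 rose 3.07-fold and the brighter probe set of Plaur 2.30-fold. The dimmer probe set of Mmp14 rose 1.45-fold. No other member passed the test, and the levels of Timp1, the inhibitor, and of Plau overlapped between groups. In the limma fit 3 of 13 member probe sets were called higher at an adjusted p under 0.05 and 0 lower, or 23.1%. Over all probe sets the share called was 11.1% (5.37% higher and 5.74% lower). Of the 13 differences 12 were above 0 and 1 below, and 4 had an unadjusted p under 0.05, all of them higher. Probe sets of the same gene are not separate observations in this count. Without DMPT replicate 4, both differences of Mmp9 and that of Mmp13 fell below 0 (-0.11, -0.076 and -0.12). The median difference of the 13 probe sets was 0.39 log2 units, against -0.017 over all probe sets. That median was the value of the brighter probe set of Mmp9, 1 of those that fell below 0 without DMPT replicate 4. Counting each gene by its brightest probe set, 2 of 9 members were called (22.2%), against 13.9% of all genes (7.13% higher and 6.77% lower). The brightest was chosen over all arrays, DMPT included. With vehicle alone, the called probe set of Plaur was the dimmer of its 2, at 6.02 against 6.17, and the other was not called. With counts this small, the share is a description only.

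**Figure D2:**
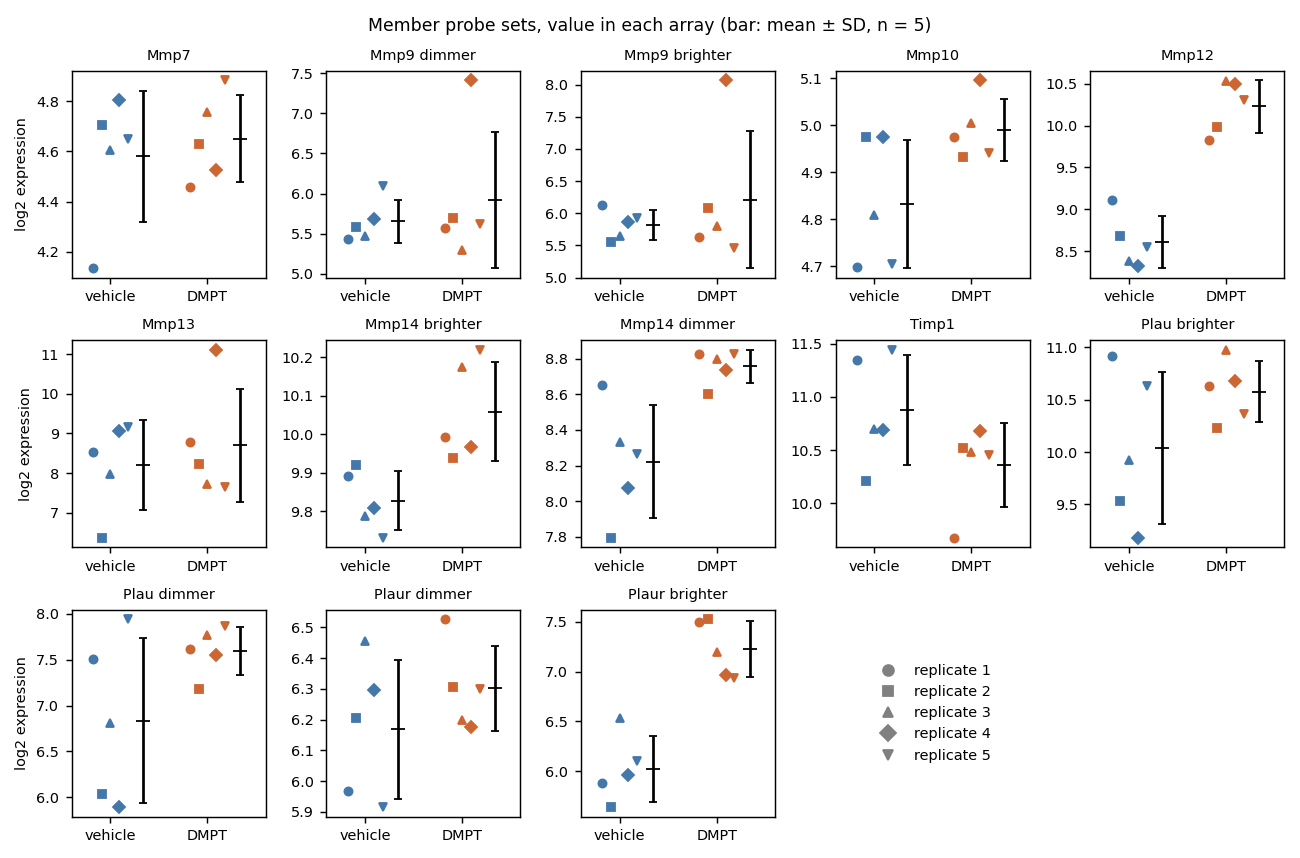
Log2 expression (y axis, a separate scale in each panel) of the 13 member probe sets in 5 vehicle and 5 DMPT arrays; symbols give the replicate, and bars the mean ± SD. The groups are apart for Mmp12, for the brighter probe set of Plaur and for the brighter one of Mmp14, and DMPT replicate 4 stands far above the others for Mmp9 and Mmp13.

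Mmp12 encodes macrophage metalloelastase, which degrades elastin and is made mainly by macrophages. Its log2 values with vehicle were 9.11, 8.68, 8.38, 8.32 and 8.55 in replicates 1 to 5. After DMPT they were 9.83, 9.98, 10.54, 10.50 and 10.30. The lowest DMPT value lay above the highest vehicle value, so the groups did not overlap; among all probe sets 11.0% had groups apart in either direction, and 5.82% had all DMPT arrays higher. The means were 8.61 ± 0.31 and 10.23 ± 0.32 (SD, n = 5 each). The difference was 1.62 ± 0.18 log2 units (SE; 95% interval 1.23 to 2.01; limma adjusted p = 0.000235). It ranged from 1.54 to 1.75 when each array was left out in turn, and the call held in each of those fits. Mmp12 was also the member probe set that stayed called when limma asked for a change beyond 1.5-fold (adjusted p = 0.0118).

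Markers of macrophages were higher in the same arrays. Of 9 measured macrophage genes, Cd68, C1qa, C1qb, C1qc and Mrc1 were called higher, Lyz2 was called lower, and 3 were not called. The shares over all genes were 7.13% higher and 6.77% lower. The lysosomal glycoprotein gene Cd68 differed by 0.87 ± 0.16 log2 units and the complement gene C1qb by 0.72 ± 0.16. The mannose receptor gene Mrc1 differed by 1.37 ± 0.38 (adjusted p = 0.0395). The surface receptor gene Adgre1 and the growth factor receptor gene Csf1r, which also mark macrophages, differed by -0.050 ± 0.14 and 0.16 ± 0.12 and were not called. The mean level of the 9 genes was 8.80 to 8.97 with vehicle and 9.12 to 9.44 after DMPT, so that the groups were apart, and 0 of the 9 lay in the dimmest quartile of probe sets. The 5 general leukocyte genes showed no such separation, at 7.98 to 8.09 and 7.81 to 8.20. The part of macrophage number in the Mmp12 and Plaur differences was not tested.

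**Figure D3:**
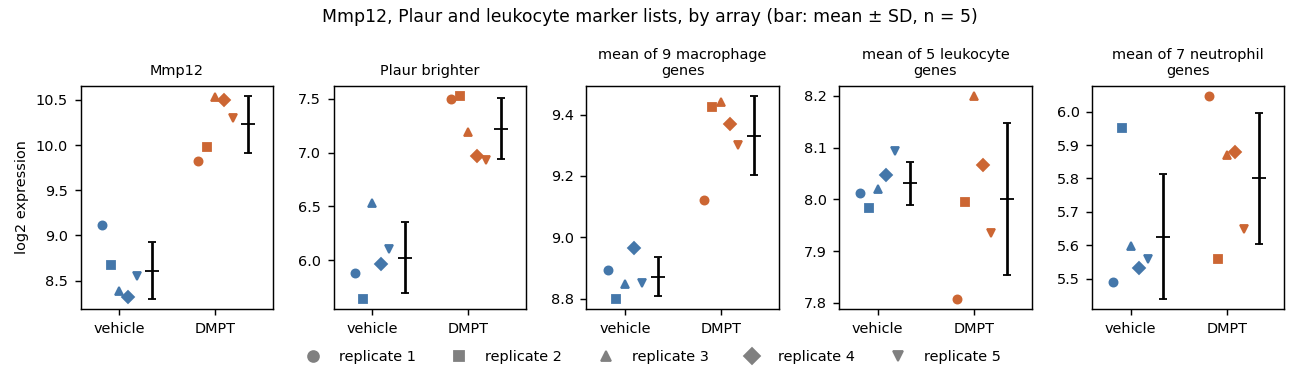
Log2 expression (y axis, a separate scale in each panel) of Mmp12, of the brighter probe set of Plaur and of the means of the macrophage, leukocyte and neutrophil marker genes, in 5 vehicle and 5 DMPT arrays; symbols give the replicate, and bars the mean ± SD. The macrophage mean is 8.80 to 8.97 with vehicle and 9.12 to 9.44 after DMPT, while the leukocyte and neutrophil means overlap between groups.

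The genes closest to Mmp12 in their profile over the 10 arrays were Cenpa, the centromeric histone gene, and the tubulin gene Tubb6. Closeness was the root mean square distance between log2 values, each taken relative to the gene's own vehicle mean. It was 0.244 for Cenpa and 0.257 for Tubb6, with a median of 1.20 over all other genes. Both rose by a similar amount, Cenpa by 1.69 ± 0.15 and Tubb6 by 1.70 ± 0.15. The measure mainly reflects the size of the group difference.

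The other members of the matrix metalloproteinase run on chromosome 8 did not follow Mmp12 to the same extent. Mmp13 and Mmp3, which lie on either side of it among the measured genes, differed by 0.48 ± 0.68 and 0.62 ± 0.46 and were not called. Mmp8, a collagenase stored in neutrophils, was called at 0.56 ± 0.16 (adjusted p = 0.0409), and lost the call without any of 7 arrays. Its mean was 4.81 with vehicle and 5.36 after DMPT, among the dimmest signals of the array. These differences between neighbours were not tested against each other.

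Mmp7 and Mmp10 were near background. Mmp7 encodes matrilysin, a small metalloproteinase of gland and airway epithelium, and Mmp10 encodes a stromelysin of migrating epithelial cells. Mmp7 ranged from 4.13 to 4.81 with vehicle and from 4.46 to 4.88 after DMPT. Mmp10 ranged from 4.70 to 4.97 and from 4.93 to 5.10. Only 7.10% and 9.09% of probe sets had a lower mean, and the lower quartile of the arrays lay between 6.37 and 6.51. The differences were 0.071 ± 0.13 (adjusted p = 0.809) and 0.16 ± 0.089 (adjusted p = 0.312). With signals this dim, the arrays could not show whether these genes were expressed. Both carry the AP-1 match and TATA box of the sequences shown above, as does Mmp12.

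Mmp13 encodes a collagenase of cartilage, bone and wounds, and its values were scattered in both groups. With vehicle they were 8.53, 6.36, 7.96, 9.06 and 9.15, and after DMPT 8.77, 8.22, 7.72, 11.12 and 7.65. Vehicle replicate 2 was the lowest and DMPT replicate 4 the highest, and the groups overlapped. Its SD within groups was 1.29 log2 units, and 12 of the 31042 probe sets had a larger one; the median over all probe sets was 0.21. The difference of 0.48 ± 0.68 (adjusted p = 0.729) became -0.12 without DMPT replicate 4, and 0.75 without DMPT replicate 5.

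Mmp9 encodes a gelatinase of neutrophils, macrophages and osteoclasts. Its brighter probe set read 6.12, 5.55, 5.64, 5.87 and 5.92 with vehicle. After DMPT it read 5.63, 6.08, 5.80, 8.07 and 5.47. DMPT replicate 4 stood above the other arrays, as it did in the dimmer probe set, which read 7.41 there and between 5.29 and 5.70 in the other DMPT arrays. The differences were 0.39 ± 0.41 and 0.27 ± 0.34 log2 units (adjusted p = 0.628 and 0.696). Without DMPT replicate 4 they were -0.076 and -0.11.

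Some genes of osteoclasts and bone were also highest in that array. The osteoclast collagenase gene Ctsk (cathepsin K) read 10.38 in DMPT replicate 4 and between 7.48 and 8.20 in the other 9 arrays. The osteocalcin gene Bglap read 12.01 there and at most 11.16 elsewhere, and the bone sialoprotein gene Ibsp 11.21 and at most 10.40. Of the 8 measured genes of the osteoclast, bone and cartilage list, these 3 were highest in that array, as were 6.09% of all probe sets. The mean of the list was 8.64 in DMPT replicate 4, 7.59 to 8.01 in the other DMPT arrays and 7.67 to 8.10 with vehicle. Outside the list, the integrin gene Itgb3 of the plasminogen system was also highest in DMPT replicate 4. It read 10.98 there and between 7.06 and 8.57 in the other 9 arrays, and was named after its values were seen. Other osteoclast genes of the list did not follow. The osteoclast phosphatase gene Acp5 read 11.55 there and 11.57 in DMPT replicate 3. It was higher in all 5 DMPT arrays than in any vehicle array (0.71 ± 0.13, limma adjusted p = 0.00589). The dim receptor gene Calcr fell by 0.44 ± 0.11 (adjusted p = 0.0289). The cartilage genes Col2a1 and Acan were not highest there either. DMPT replicate 4 was also the highest array for 2 of 6 fibroblast genes, the collagen genes Col1a1 and Col1a2, for 2 of 9 macrophage genes, Cd68 and Csf1r, for 1 of 7 neutrophil genes, Cxcr2, and for 0 of 5 endothelial genes. The neutrophil list, with 5 of its 7 measured genes in the dimmest quartile, read 5.88 in that array and up to 6.05 in others. The part of bone, stroma or macrophages in the Mmp9 and Mmp13 values was not tested.

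**Figure D4:**
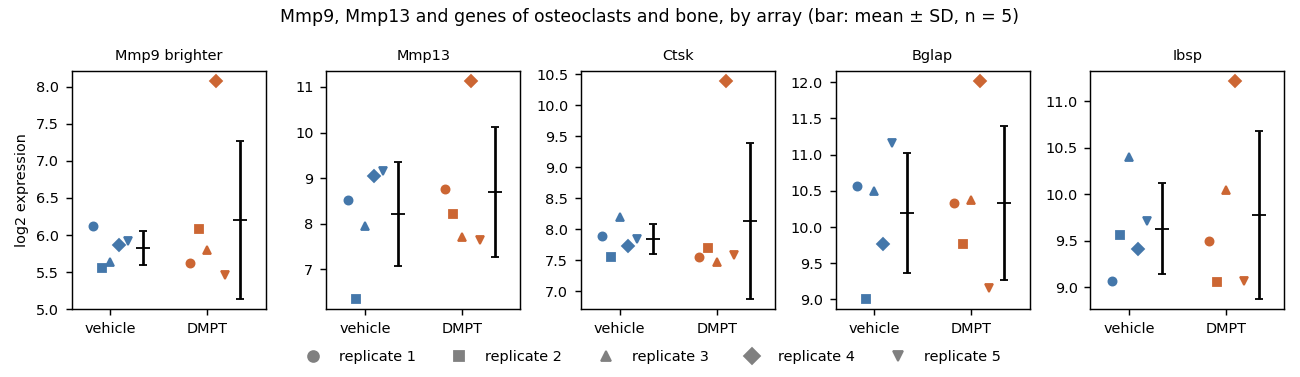
Log2 expression (y axis, a separate scale in each panel) of Mmp9, Mmp13 and the bone genes Ctsk, Bglap and Ibsp in 5 vehicle and 5 DMPT arrays; symbols give the replicate, and bars the mean ± SD. DMPT replicate 4 (diamond) is the highest array in every panel, with 8.07 for Mmp9, 11.12 for Mmp13 and 10.38 for Ctsk.

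Mmp14 encodes a membrane-anchored metalloproteinase that cuts collagen at the cell surface and activates the gelatinase precursor encoded by Mmp2. Its brighter probe set read 9.89, 9.92, 9.79, 9.81 and 9.73 with vehicle and 9.99, 9.94, 10.17, 9.97 and 10.22 after DMPT. The groups did not overlap, yet the lowest DMPT value exceeded the highest vehicle value by little, and the difference of 0.23 ± 0.089 did not pass (adjusted p = 0.127). The dimmer probe set read 8.65, 7.79, 8.33, 8.07 and 8.27 with vehicle and 8.82, 8.60, 8.80, 8.74 and 8.82 after DMPT. There 4 of 5 DMPT arrays lay above all vehicle arrays, and the difference of 0.53 ± 0.14 passed (limma adjusted p = 0.0318). That call was lost when vehicle replicate 4 or 5, or any DMPT replicate but 2, was left out, with values from 0.50 to 0.54 in those 6 fits and from 0.43 to 0.64 over all 10 omissions. Adjusted for the RNA ratio it was 0.43 (adjusted p = 0.149). The mean of both probe sets differed by 0.38 ± 0.092 (adjusted p = 0.0154). Mmp2 differed by -0.34 ± 0.23 and was not called.

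Timp1 was the only member with a lower mean after DMPT. It encodes a secreted inhibitor of most metalloproteinases and was the brightest member, with 83.5% of probe sets dimmer. Its values were 11.35, 10.21, 10.70, 10.69 and 11.44 with vehicle and 9.67, 10.52, 10.48, 10.68 and 10.46 after DMPT. DMPT replicate 1 was the lowest, vehicle replicates 1 and 5 were the highest, and the other arrays overlapped. The difference of -0.51 ± 0.25 (95% interval -1.06 to 0.032) did not pass (adjusted p = 0.232), and it ranged from -0.68 to -0.34 over the omissions of single arrays. The interval ran from a fall of about 1 log2 unit to no change.

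Plau, the urokinase gene, was measured by 2 probe sets, and neither was called. The brighter one read 10.92, 9.54, 9.92, 9.18 and 10.63 with vehicle and 10.63, 10.23, 10.98, 10.68 and 10.37 after DMPT. The vehicle arrays were spread, with an SD of 0.73, and the DMPT arrays lay close together, with an SD of 0.29, around the upper part of the vehicle range. The dimmer one showed the same arrangement, from 5.89 to 7.94 with vehicle and from 7.18 to 7.87 after DMPT. The differences were 0.54 ± 0.30 (adjusted p = 0.302) and 0.76 ± 0.35 (adjusted p = 0.209). In both probe sets vehicle replicates 2 and 4 were the lowest arrays.

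Plaur encodes the urokinase receptor, a surface protein on a lipid anchor that epithelial cells and leukocytes carry. The brighter probe set read 5.88, 5.64, 6.53, 5.96 and 6.11 with vehicle. After DMPT it read 7.49, 7.53, 7.19, 6.97 and 6.93, above all vehicle arrays. The difference was 1.20 ± 0.18 log2 units (SE; 95% interval 0.82 to 1.58; limma adjusted p = 0.00135), and it was called in every omission of a single array, with values from 1.10 to 1.33. The level was below the median of the arrays in both groups, at means of 6.02 and 7.22. The dimmer probe set read between 5.92 and 6.46 with vehicle and between 6.18 and 6.53 after DMPT, a difference of 0.13 ± 0.12 (adjusted p = 0.560). The mean of both probe sets differed by 0.67 (adjusted p = 0.00515). By the array maker's naming, the suffix of the brighter probe set marks probes that match more than one transcript; which transcripts these are was not examined. The genes nearest to Plaur in profile were the phosphate transporter gene Slc20a1 and Tmem45b, at distances of 0.208 and 0.229 against a median of 0.919. They rose by 1.15 ± 0.15 and 1.31 ± 0.20.

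Around these members, 83 other genes of matrix proteolysis were measured in 7 lists. Of these, 9 were called higher and 3 lower (14.5%), close to the 13.9% of all genes, with a median difference of 0.035 log2 units against -0.0052 over all genes. Leaving out vehicle replicate 4 or DMPT replicate 5 brought the higher count to 4, and leaving out vehicle replicate 1 or DMPT replicate 1, 2 or 3 brought it to 5. Asked for a change beyond 1.5-fold, limma called 0 of them.

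In the plasminogen system 3 of 17 genes were higher and 0 lower, beside 7.13% and 6.77% of all genes. Plat, which encodes the tissue-type plasminogen activator, read 10.50, 10.66, 10.98, 10.08 and 10.76 with vehicle and 11.64, 11.82, 11.68, 11.22 and 11.68 after DMPT. The groups did not overlap, and the difference was 1.01 ± 0.17 (limma adjusted p = 0.00280). Endothelial cells are a known source of this activator, and 3 of 5 endothelial genes were called higher in the same arrays, with list means of 6.21 to 7.14 with vehicle and 7.25 to 8.35 after DMPT; their part was not tested. Serpinb2, which encodes an inhibitor of both plasminogen activators, read 2.95 to 3.36 with vehicle and 7.70, 5.21, 5.87, 5.47 and 3.67 after DMPT. All vehicle arrays were far below the lower quartile of the arrays, and 5.79% of probe sets had a lower mean. The fit gave a difference of 2.41 ± 0.54 (adjusted p = 0.0155), whose size rests on a vehicle signal too dim to show expression. The DMPT arrays differed from each other by several log2 units. Without both vehicle replicate 2 and DMPT replicate 4 its adjusted p was 0.0520. The third, S100a10, a surface partner of annexin A2 in plasminogen binding, was named after its values were seen and differed by 0.42 ± 0.11 (adjusted p = 0.0327).

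Among 11 other metalloproteinase genes, Mmp28 and Mmp8 were higher and 0 lower, beside 7.13% and 6.77% of all genes. Mmp28 encodes epilysin, an enzyme of keratinocytes and other epithelia. It read 6.12, 6.31, 6.23, 6.83 and 6.07 with vehicle and 7.56, 7.20, 7.97, 7.55 and 7.15 after DMPT, with no overlap. The difference was 1.18 ± 0.18 log2 units or 2.26-fold (limma adjusted p = 0.00186), and the call held without each array in turn. Of 5 other metalloproteinase inhibitors, all 5 had differences below 0 and 0 were called by limma; 1, Timp4, had an unadjusted p under 0.05. Timp4 differed by -0.93 ± 0.29 (adjusted p = 0.0602). It was called when vehicle replicate 3 was left out (-1.15, adjusted p = 0.0127) and without the dimmest quartile of probe sets (adjusted p = 0.0492). The protease-trapping gene A2m differed by -0.88 ± 0.49 (adjusted p = 0.302).

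The remaining lists went both ways. Among 18 ADAM and ADAMTS genes, Adamts15, a proteoglycan-cutting protease gene, fell by 0.62 ± 0.12 (adjusted p = 0.00844), and Adam17, the sheddase of growth factor precursors, differed by 0.43 ± 0.14 (adjusted p = 0.0745). Adam17 was called when vehicle replicate 2 was left out (adjusted p = 0.0378), with array weights, with median centring of the arrays and after adjustment for the RNA ratio. Among 13 cathepsins and proprotein convertases, Ctsl rose by 0.78 ± 0.14 and Ctsh fell by 0.48 ± 0.087 (adjusted p = 0.00442 and 0.00484). A second probe set of Ctsl rose by 0.67 ± 0.11. Among 8 membrane serine proteases and their inhibitors, the hepsin gene Hpn was higher by 0.40 ± 0.11 (adjusted p = 0.0401), a call lost without any of 7 arrays. The inhibitor gene Spint1 differed by 0.44 ± 0.13 (adjusted p = 0.0556), and was called when vehicle replicate 2 was left out (0.56, adjusted p = 0.00273). It was also called with array weights (adjusted p = 0.00427), after adjustment for the RNA ratio (0.00995), with median centring (0.0305), with the trend and robust variance prior (0.0373) and without the dimmest quartile (0.0455).

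Among 11 genes of matrix proteins that these enzymes cut, 2 were higher and 1 lower, beside 7.13% and 6.77% of all genes. The basement membrane collagen gene Col4a1 was higher by 1.32 ± 0.34 (adjusted p = 0.0284). Its other probe set was higher by 1.61 ± 0.34 (limma adjusted p = 0.0105), with no overlap between groups. The call of the first was lost without any of 8 arrays. For the other probe set the alternatives were not examined. Endothelial cells also make this collagen, and the part of the endothelial genes given beside Plat was not tested here either. Col17a1, a collagen of hemidesmosomes, was higher by 0.59 ± 0.17 (adjusted p = 0.0472), a call lost without any of 7 arrays. Col7a1, which forms the anchoring fibrils beneath the epithelium, fell by 0.61 ± 0.15 (adjusted p = 0.0201; 0.0549 without DMPT replicate 3). After adjustment for the RNA ratio, which ran lower after DMPT with overlap between groups, these 3 calls and that of Mmp8 were lost, at adjusted p = 0.121 for Col4a1, 0.149 for Col17a1, 0.0874 for Col7a1 and 0.114 for Mmp8. With array weights Col4a1 and Col17a1 were not called (adjusted p = 0.0680 and 0.0843).

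**Figure D5:**
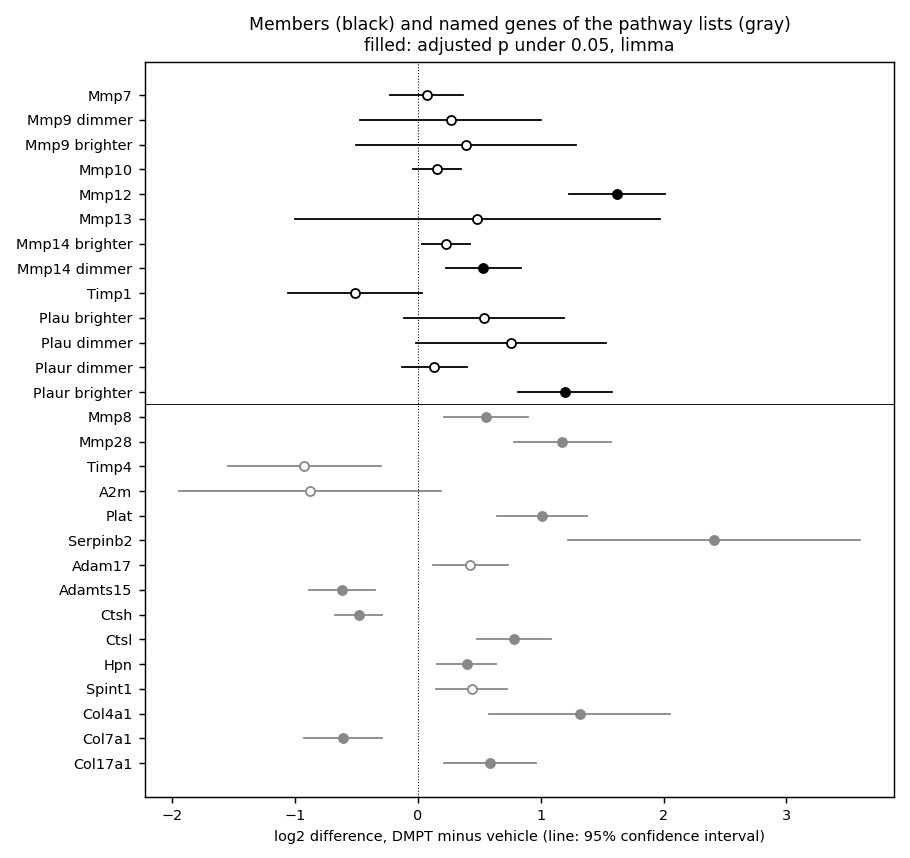
Log2 difference, DMPT minus vehicle (x axis), for the 13 member probe sets (black) and the named genes of the pathway lists (gray), with 95% confidence intervals from limma; filled points have an adjusted p under 0.05. Mmp12, the brighter probe set of Plaur and the dimmer one of Mmp14 are the filled member points, and the intervals of Mmp13 and of the brighter probe set of Mmp9 are the widest among the members.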

How the data were processed

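The deposited values are log2 expression per probe set, made by the authors with RMA (background correction, normalisation between arrays and summary of probes), per the submitters' processing notes. The sources used here do not give the software version, a probe filter or a genome build. The table held 31099 probe sets for 10 arrays; 57 control probe sets were set aside. Symbols came from the platform annotation, with 20826 probe sets holding 1 symbol, 436 several and 9780 none, and 20758 were found in the RefSeq table (GRCr8) with 0 symbols changed. The number of arrays limits the precision.

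The comparison used limma (version 3.58.1, R 4.3.3; lmFit and eBayes) over 31042 probe sets, with two-sided p-values adjusted by Benjamini-Hochberg and a threshold of 0.05. Values after ± are standard errors unless marked SD. In the lists, a gene was represented by its probe set with the highest mean. The fit was tested on simulated data. The authors' ORIOGEN comparison was not run.

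Members and lists were chosen with earlier results of these data known. Of the lists, genes past the threshold with an absolute difference of at least 0.5 were named, or the 2 smallest p; nearest profiles were sought for called members with a difference of at least 1. Alternatives were single-array omissions, the replicate number as a block, a filter on the dimmest 25%, array weights, another variance prior, median centring, quantile normalisation, the RNA ratio as a covariate, limma's treat at 1.5-fold and the mean over a gene's probe sets.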

Additional observations from a re-analysis of the deposited data

Results flagged for a closer look

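In each group of 5 arrays the highest or lowest array was set against the others by Dixon's criterion, over 26 groups of member values, and 3 stood apart; chance gives about 1 in 20. Both probe sets of Mmp9 were far higher in DMPT replicate 4, at 7.41 (other DMPT arrays 5.29 to 5.70) for the dimmer one and 8.07 (5.47 to 6.08) for the brighter. These measure the same gene in the same array and count as 1 observation. The bone genes Ctsk, Bglap and Ibsp were highest in that array too. Timp1 was far lower in DMPT replicate 1, at 9.67, with the other DMPT arrays between 10.46 and 10.68.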

How the results depend on the processing

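The 13 member probe sets had 242 refitted values, over the alternatives and a joint omission of arrays given below. Of these, 224 kept their direction and side of the threshold, 10 lost the call and 8 changed sign. The changes of sign were all in probe sets that were not called. They were Mmp7 without vehicle replicate 1 (-0.041) and Mmp13 after adjustment for the RNA ratio (-0.085). The others were Mmp9 and Mmp13 without DMPT replicate 4, left out alone or together with vehicle replicate 2. Over the single omissions Mmp7 ran from -0.041 to 0.13, the dimmer probe set of Mmp9 from -0.11 to 0.42, the brighter from -0.076 to 0.58, and Mmp13 from -0.12 to 0.75. Leaving out vehicle replicate 2 and DMPT replicate 4 together, chosen after seeing the data, gave -0.12 and -0.14 for Mmp9 and -0.58 for Mmp13. The number of member probe sets called higher was 2 to 3 without single arrays and 1 under limma's treat at 1.5-fold, and the number called lower stayed at 0. In the other genes of the lists the number called higher was 4 to 12 and called lower 3 to 4 without single arrays, and 0 and 0 under treat. The labels state no pairing of arrays by replicate number. Deviations of same-numbered arrays correlated at -0.067 to 0.23, and 2 of 5 DMPT arrays correlated best with their own number. These values are descriptive and do not settle whether the numbers pair the arrays. With the replicate number as a block, 3 member probe sets were called higher and 0 lower, and 10 and 4 of the list genes; Mmp8 lost its call, and Timp4, Adam17 and Spint1 gained one. Median centring and quantile normalisation left 3 member probe sets called and moved the median of all probe sets from -0.017 to 0.022 and 0.0011.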
